A study of Mus musculus with 12 samples.

Results

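Huntingtin works largely through the proteins that bind it. The transcripts of 8 such partners were followed here, out of 55487 genes counted: Hap1, Hip1, Hip1r, F8a, Zdhhc17, Prpf40b, Ago2 and Trip10. They were selected by symbol from the known huntingtin-binding proteins and by no measured value, although earlier results of these data were known by then. Ensembl gene identifiers in the count files were matched to symbols through a GRCm38 annotation, and all 8 were found.

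Huntingtin is a large scaffold protein of repeated helical segments that brings motors, membranes and enzymes together. Its partners fall into several classes: Hap1 links it to dynactin and kinesin on microtubules, Hip1 and Hip1r couple clathrin coats to actin, F8a (also called HAP40) is bound so tightly that the pair behaves as a complex and links it to Rab5 endosomes, and Zdhhc17 attaches palmitate to it. Prpf40b belongs to the splicing machinery around the U1 small nuclear ribonucleoprotein, Ago2 is the small-RNA-guided slicer of the silencing machinery and sits with huntingtin in processing bodies, and Trip10 is a membrane-bending F-BAR protein that binds the GTPase Cdc42. Hap1 is best known from neurons, whereas the others are found in many tissues, fibroblasts included.

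Primary fibroblasts were grown from mouse E13.5 embryos whose Htt alleles were floxed (HTTfl/fl), in all 12 samples alike. HTT-deleted cultures received a lentivirus encoding Cre recombinase and GFP, and control cultures one encoding H2B-eGFP, each for 7 days. The control vector therefore differed from the Cre vector in its fluorescent protein as well. From every culture 1 part in 15 of the cells gave total RNA and the rest gave ribosome-associated RNA, taken from a purified ribosome pellet, so that the design holds 4 groups of 3 libraries. By the labels, a replicate is a separate primary culture or an independent passage of one, and p-values measure that spread only. Because these are bulk samples, fewer cells that hold a transcript and less of it per cell cannot be told apart.

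The libraries held 16789356 to 30571501 counts in genes. Values below are CPM (read counts scaled to a common library size by TMM), and log2 CPM where a difference is given. Htt itself, which checks the labels, was at 58.86, 45.73 and 64.51 CPM in total RNA of control replicates 1, 2 and 3 and at 15.52, 10.58 and 10.73 CPM in total RNA of HTT-deleted cells. On ribosomes it was at 22.57, 20.08 and 31.95 CPM in controls and at 12.80, 5.042 and 3.977 CPM in HTT-deleted cells. Every HTT-deleted library lay below every control library of its fraction, by 2.16 (SE 0.24) and 1.78 (SE 0.47) on the log2 scale, although edgeR's quasi-likelihood test gave Benjamini-Hochberg adjusted p of 0.812 and 1.0 over all genes. For total RNA, 4 of 16 alternative fits called the difference, DESeq2 among them (adjusted p = 7.01e-12), and for ribosome-associated RNA 0 of 16 did. In the authors' deposited table the false discovery rates of Htt were 3.98e-39 and 4.48e-07. Total HTT-deleted replicate 1 stood apart from the other total libraries. Across 12494 genes, its deviation from the mean of the other 5 ran with exon length at a Spearman rho of -0.522 (0.174 to 0.364 in the other 5). Some results that rest on it are given with and without it, and correlations over the 12 libraries only with it. Among the ribosome-associated libraries, control replicate 1 had a rho of -0.434, against 0.027 to 0.15 in the other 5. Fibroblast markers summed to 23440 to 39830 CPM in the 12 libraries. Macrophage markers summed to 792.3 to 3257 CPM in total RNA of controls and to 1818 to 7530 CPM in that of HTT-deleted cells. On ribosomes the sums were 1196 to 4925 CPM in controls and 2808 to 8489 CPM in HTT-deleted cells. All 17 tested macrophage markers had a fitted value above 0 in HTT-deleted cells in both fractions, with none called, and Cd163 was at 0 in all 12 libraries. In a fit that blocks on the replicate number, 9 of the 17 were called higher in ribosome-associated RNA. Between the fractions of controls, their median difference was 0.52 on the log2 scale, with 0 called, or 13 in the blocked fit. The part of macrophages in the values of the partners was not tested.

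Since the study set RNA on ribosomes beside total RNA, the first bases of the transcripts are shown. Some transcripts begin with a C followed by a run of pyrimidines (C or T), the terminal oligopyrimidine start, through which their translation is known to be regulated. RefSeq start sites on GRCm38.p6 were used for 7 of the 8 genes, and that of Ago2 was not analysed here. The lines give 10 bases before the start in lower case and the first 20 transcribed bases in capitals, 5′ to 3′. Each uses the RefSeq start nearest to the annotated start of the gene. That start lay 154 bases from the annotated one for Prpf40b, 74 for Zdhhc17 and 0 to 15 for the rest.
Hap1 (chr11:100356109-100356138, minus strand): ggagcccgctCCGAGCACAGGTTATAAAGC
Hip1 (chr5:135545103-135545132, minus strand): cgggtagggaGGGGCGGGAGGCTCCGCGGG
Hip1r (chr5:123973618-123973647, plus strand): tcggttggacAACCGGAGTGACTGGCGGGA
F8a (chrX:73228296-73228325, plus strand): ggcgcggctaGCCGGTCAACATGGCTGCGG
Zdhhc17 (chr10:111010047-111010076, minus strand): cctccgccttGCCGAGCCCCGCGAGGCTGA
Prpf40b (chr15:99295231-99295260, plus strand): cgagtgggccGAGCCGGCCCAGCTGCTCTG
Trip10 (chr17:57249441-57249470, plus strand): cggcggggcgGGGCGAGGTTGGGCACACTG
None of these 7 starts is a C followed by 4 pyrimidines, a start found at 2.51% of 32851 RefSeq promoters. Only the Hap1 line opens its capitals with a C, followed by another C and then a G. Around these starts, the windows of 250 bases before to 50 after held 54.7 to 79.7% G and C, above the median of 52.7% over all promoters. They held 17 to 47 CpG dinucleotides against a median of 7. Both medians are over all promoters, whether or not the gene was expressed here, and none over expressed genes alone was computed. Hap1, Hip1, Zdhhc17 and Prpf40b have another RefSeq start each. The windows there held 54.7, 71.7, 75.0 and 53.7% G and C and 16, 28, 43 and 5 CpG dinucleotides, that of Prpf40b being below the median.

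On the scale of CPM per kb of merged exon, which joins the exons of all annotated transcripts of a gene, Trip10 was the most abundant partner in each of the 4 groups. In control total RNA it reached 23.05 ± 1.81 CPM per kb (SD, n = 3), with no overlap with the next. Prpf40b (9.149 ± 0.611), Ago2 (9.037 ± 0.323) and Hip1 (8.345 ± 0.642) followed with overlapping ranges, and Zdhhc17 was at 5.935 ± 0.452. At the low end F8a (2.128 ± 0.170) and Hip1r (1.784 ± 0.156) overlapped, and Hap1 stood below both at 0.3459 ± 0.0386 CPM per kb. In control ribosome-associated RNA the order was Trip10 (16.55 ± 0.04), Hip1 (6.054 ± 0.992), Ago2 (5.627 ± 0.543), Zdhhc17 (4.667 ± 1.08), Prpf40b (4.042 ± 0.397), F8a (2.814 ± 0.170), Hip1r (1.055 ± 0.143) and Hap1 (0.3031 ± 0.0596 CPM per kb). On this scale Prpf40b thus stood at rank 2 of 8 in total RNA and at rank 5 in ribosome-associated RNA. Its range there still overlapped that of Zdhhc17, and F8a and Hip1r no longer overlapped. Merged exons exceed a single coding transcript by unequal amounts. They span 12.96 kb for Hip1, 4.95 kb for Prpf40b and 14.03 kb for Ago2, whose coding transcripts with the longest coding sequence span 7.83, 3.31 and 13.8 kb. The order per kb of such a transcript was not computed and may differ.

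**Figure D1:**
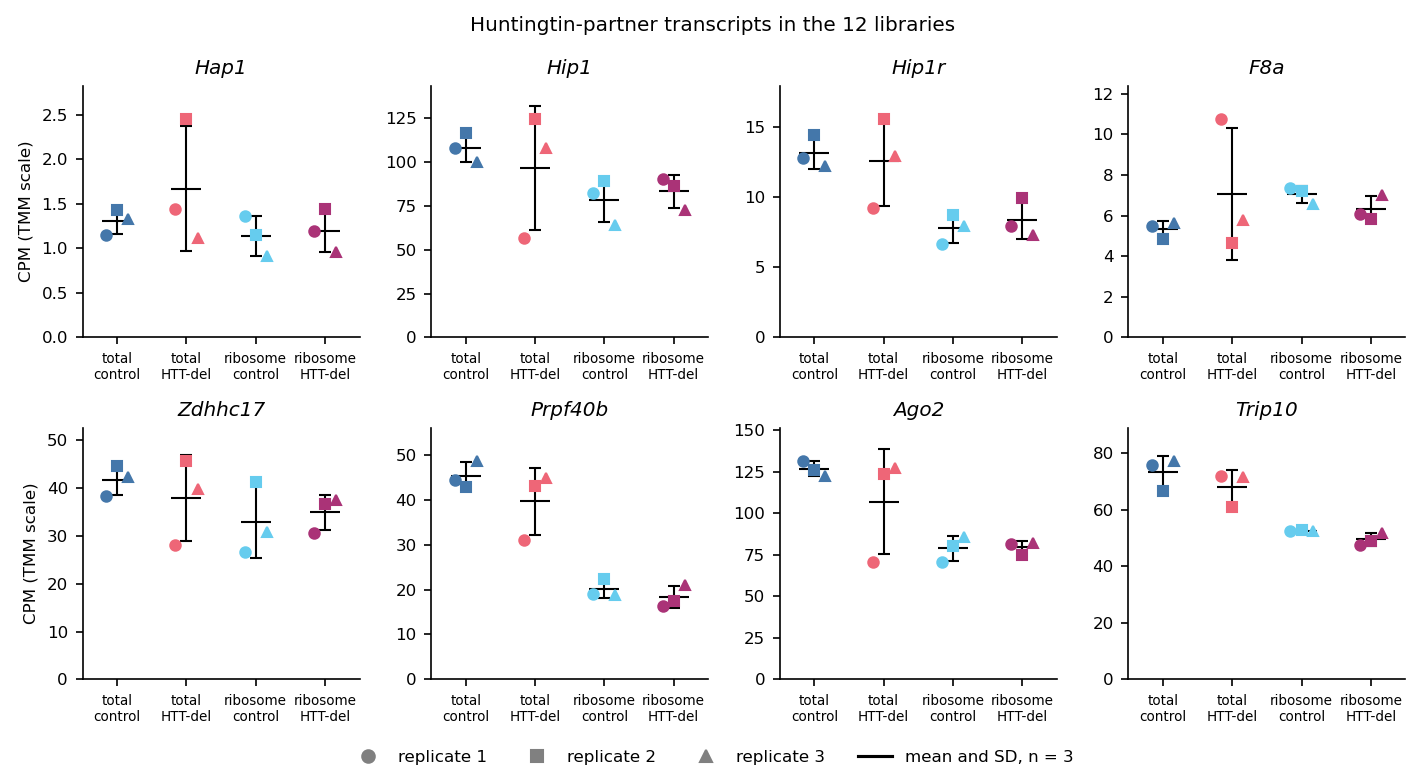
Level of each huntingtin-partner transcript in CPM (y axis, linear from 0, TMM scale) in the 4 groups (x axis), with 1 point per library shaped by replicate number and bars for the mean and SD of 3. Prpf40b, Ago2 and Trip10 sit lower in ribosome-associated than in total RNA of controls with no overlap, and total HTT-deleted replicate 1 is the lowest total library for Hip1 (56.88 CPM) and Ago2 (70.41 CPM) and the highest for F8a (10.77 CPM).

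Calls among the partners came from the comparison of RNA fractions, and none from that of HTT-deleted with control cells. In control cells Prpf40b, Hip1r, Ago2, Trip10 and Hip1 were lower in ribosome-associated than in total RNA, by 2.28-fold for Prpf40b and by 1.39-fold for Hip1, and F8a had the only fitted value above 0. At a Benjamini-Hochberg adjusted p under 0.05 in edgeR's quasi-likelihood test, 5 of the 8 partners were called, all lower. Over all 14990 genes tested, 25.0% were called, 15.0% lower and 10.0% higher. The median of the 8 was -0.48 on the log2 scale, beside 0.02 over all genes. Ranges of the fractions did not overlap for 6 of the 8, against 44.1% of all genes. With a replicate block, which pairs the fractions of 1 culture, 50.2% of genes were called and Zdhhc17 (lower) and F8a (higher) joined, which left Hap1 alone without a call. Without total control replicate 1, or without total control replicate 2, 3 partners were called (Prpf40b, Ago2 and Trip10). The count over all genes was then 1507 or 2119 in place of 3745, and 2197 without total control replicate 3. Without ribosome-associated control replicate 1, whose deviation also ran with exon length, 4 partners were called (Hip1 was not) and 2671 genes.

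None of the 8 partners was called for HTT deletion in either fraction, but without a block edgeR's quasi-likelihood test called no gene, not even Htt itself. The lack of a call therefore does not show that a partner was unchanged. In total RNA edgeR's quasi-likelihood test called 0 of 14759 genes (0.0%), with 44 (0.298%) at an unadjusted p under 0.05, and DESeq2 and limma voom called 3 and 0. In ribosome-associated RNA it called 0 of 14588 genes (0.0%), with 110 (0.754%) at an unadjusted p under 0.05, and DESeq2 and limma voom called 1 and 0. By that test no partner had an unadjusted p under 0.05 in either fraction, and DESeq2 and limma voom called none. Ranges did not overlap for 0 of the 8 in total RNA (4.21% of all genes) and for 1 in ribosome-associated RNA (5.44%). The fitted differences ran from -0.22 (Ago2) to 0.45 (F8a) in total RNA and from -0.15 (F8a) to 0.12 (Hip1r) in ribosome-associated RNA, with medians of -0.10 and 0.05 beside 0.01 and -0.001 over all genes. With the replicate block, 247 genes (1.69%) were called in ribosome-associated RNA and 0 (0.0%) in total RNA, where 350 had an unadjusted p under 0.05, and no partner was called. In the blocked fit without the pair of replicates 1, 94 genes (0.629%) were called in total RNA, again with no partner among them. The fits that share control libraries are not independent of each other. In the authors' deposited table, no partner had a false discovery rate under 0.05, against 4.97% of genes in total and 4.21% in ribosome-associated RNA. The lowest false discovery rate of a partner in the authors' deposited table was 0.218, for F8a in total RNA, at a log2 fold change of 0.351. Its unadjusted p there was 0.0384, from the authors' likelihood ratio. In total HTT-deleted replicate 1 F8a was at 10.77 CPM, against 4.635 and 5.792 CPM in replicates 2 and 3.

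**Figure D2:**
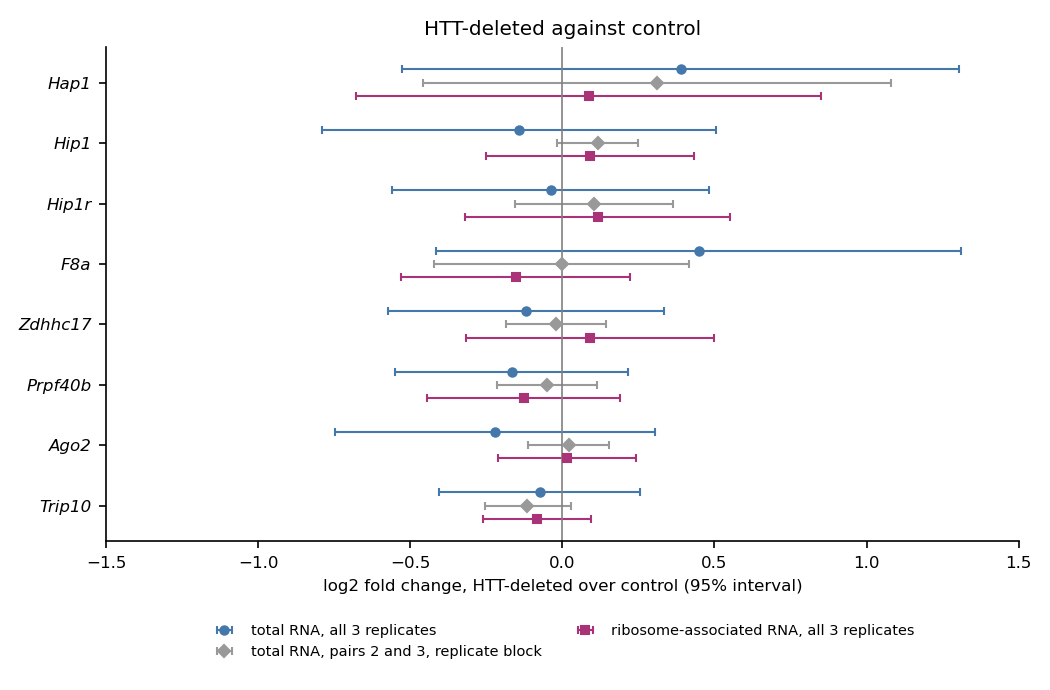
Log2 fold change of HTT-deleted over control cells (x axis) for each partner (y axis), with 95% intervals, in total RNA, in total RNA from replicates 2 and 3 with a replicate block, and in ribosome-associated RNA. Each interval includes 0, and the intervals of Hip1 (-0.79 to 0.51) and Ago2 (-0.75 to 0.30) in total RNA are several times wider than those without the pair of replicates 1 (-0.02 to 0.25 and -0.11 to 0.15).

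Hap1, the adaptor between huntingtin and microtubule motors, lies at chr11:100347327-100356128 on the minus strand (GRCm38, as for all genes below). It was the scarcest partner, with 21 to 45 reads per library, so counting error limits its precision more than that of the others. Its level was 1.146, 1.434 and 1.328 CPM in control and 1.436, 2.454 and 1.116 CPM in HTT-deleted total RNA. Ribosome-associated RNA held 1.364, 1.146 and 0.9148 CPM in controls and 1.192, 1.446 and 0.9574 CPM in HTT-deleted cells. All 4 groups overlapped, and total HTT-deleted replicate 2 was the highest library. The HTT-deleted minus control difference was 0.39 on the log2 scale in total RNA (95% interval -0.53 to 1.30) and 0.09 in ribosome-associated RNA (-0.68 to 0.85), and ribosome-associated minus total RNA in controls was -0.21 (-0.90 to 0.49). Of 12 markers of neurons, a cell type in which Hap1 is abundant, 6 reached 10 counts in every library. Together the neuron markers summed to 157.2 to 318.9 CPM in the 12 libraries. Rbfox3 was at 0 in total RNA of controls, and Elavl3 and Snap25 were at 0 in ribosome-associated RNA of controls and of HTT-deleted cells, respectively. None was at 0 throughout the total RNA of HTT-deleted cells.

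Hip1, the clathrin and actin adaptor first found through its binding to huntingtin, lies at chr5:135406531-135545120 on the minus strand and has 12.96 kb of merged exon. Its total RNA level was 108.2, 116.4 and 99.81 CPM in controls and 56.88, 124.7 and 108.3 CPM in HTT-deleted cells. In ribosome-associated RNA it was 82.33, 88.95 and 64.13 CPM in controls and 90.62, 86.29 and 72.72 CPM in HTT-deleted cells. The control fractions did not overlap, and among the total libraries HTT-deleted replicate 1 was far the lowest. Ribosome-associated minus total RNA in controls was -0.47 (SE 0.13, Benjamini-Hochberg adjusted p = 0.0397, edgeR's quasi-likelihood test), and each of the 3 pairs was below 0. This call was lost under upper-quartile scaling (adjusted p = 0.0595) and in the fit of all 12 libraries (adjusted p = 0.248). Leaving out 1 library ended it for every control library but ribosome-associated replicate 2, with values from -0.53 to -0.34 for those that ended it. After HTT deletion its total RNA differed from controls by -0.14 (95% interval -0.79 to 0.51), and without total HTT-deleted replicate 1 the mean of the remaining 2 libraries, 116.5 CPM, lay at the top of the control range.

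Hip1r, the relative of Hip1 that binds clathrin light chains and restrains actin assembly, lies at chr5:123973628-124005558 on the plus strand. Total RNA held 12.80, 14.44 and 12.21 CPM in controls and 9.222, 15.60 and 12.91 CPM in HTT-deleted cells. Ribosome-associated RNA held 6.633, 8.711 and 7.972 CPM in controls and 7.980, 9.959 and 7.291 CPM in HTT-deleted cells. All 3 control libraries of ribosome-associated RNA were below all 3 of total RNA, a difference of -0.76 (SE 0.15, 1.70-fold lower, Benjamini-Hochberg adjusted p = 0.0119, edgeR's quasi-likelihood test). Without total control replicate 1 or 2 the difference was -0.77 or -0.69, at adjusted p of 0.0508 and 0.0516. HTT-deleted and control libraries overlapped in both fractions, with differences of -0.04 (95% interval -0.56 to 0.48) in total RNA, and for the ribosome-associated fraction 0.12 (-0.32 to 0.55). In the annotation 918 bases of its exons, 12.5% of their length, are shared with Vps37b on the opposite strand. Whether reads were counted by strand is not stated in the sources at hand, so it is not known how reads of this stretch were assigned or whether they were set aside as ambiguous.

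F8a, the HAP40 subunit of the huntingtin complex, is a single-exon gene at chrX:73228291-73230795 on the plus strand and the shortest of the 8, with 2.50 kb. Total RNA held 5.500, 4.845 and 5.644 CPM in controls and 10.77, 4.635 and 5.792 CPM in HTT-deleted cells. Ribosome-associated RNA held 7.377, 7.198 and 6.567 CPM in controls and 6.054, 5.827 and 7.033 CPM in HTT-deleted cells. Total HTT-deleted replicate 1 was the highest of all 12 libraries, and the fractions of control cells did not overlap. Its ribosome-associated minus total difference in controls was 0.39 (SE 0.16, adjusted p = 0.11 by edgeR's quasi-likelihood test), and it became a call with the replicate block (0.39, SE 0.14, adjusted p = 0.033 in the same test). The fitted effect of HTT deletion on F8a in total RNA was 0.45 (95% interval -0.42 to 1.31) and was -0.002 (-0.42 to 0.42) in the blocked fit without the pair of replicates 1. In ribosome-associated RNA that effect was -0.15 (-0.53 to 0.22). A log2 difference of 1 in either direction lay outside this last interval, whereas in total RNA an increase of that size lay within it.

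Zdhhc17, the palmitoyltransferase also called HIP14, lies at chr10:110941780-111010140 on the minus strand. Its level in total RNA was 38.43, 44.74 and 42.31 CPM in controls and 28.05, 45.75 and 39.80 CPM in HTT-deleted cells. In ribosome-associated RNA it was 26.60, 41.31 and 30.78 CPM in controls and 30.64, 36.61 and 37.52 CPM in HTT-deleted cells. Control replicate 2 was high in both fractions, and the fractions overlapped through it. The ribosome-associated minus total difference in controls was -0.36 (SE 0.16, adjusted p = 0.144 by edgeR's quasi-likelihood test). Within replicate numbers it was below 0 in 3 of 3 pairs, and the blocked fit called it (-0.37, SE 0.09, adjusted p = 0.0034 by the same test). HTT deletion gave -0.12 (95% interval -0.57 to 0.34) in total RNA, and for the ribosome-associated fraction 0.09 (-0.32 to 0.50). Without total HTT-deleted replicate 1 the mean of the remaining 2 total libraries, 42.77 CPM, lay within the control range.

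Prpf40b, the splicing factor also known as huntingtin-interacting protein C, lies at chr15:99295087-99317018 on the plus strand. It had the largest difference between the fractions among the 8. Total RNA held 44.36, 42.87 and 48.69 CPM in controls and 31.09, 43.02 and 44.90 CPM in HTT-deleted cells. Ribosome-associated RNA held 18.97, 22.28 and 18.79 CPM in controls and 16.24, 17.52 and 21.03 CPM in HTT-deleted cells. The fractions did not overlap in either genotype, and every ribosome-associated library was below every total library. In controls the difference was -1.19 (SE 0.10, 2.28-fold lower, Benjamini-Hochberg adjusted p = 0.0011, edgeR's quasi-likelihood test), and 4.8% of the genes tested had a lower value. In HTT-deleted cells it was -1.13 (SE 0.20, adjusted p = 0.0631 by the same test). HTT deletion itself gave -0.17 (95% interval -0.55 to 0.22) in total RNA, and for the ribosome-associated fraction -0.13 (-0.44 to 0.19). Without total HTT-deleted replicate 1 the mean of the remaining 2 total libraries, 43.96 CPM, lay within the control range. Of its 15 annotated transcripts 8 are coding and 6 are retained-intron models.

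Ago2, which cleaves or silences messages paired to a microRNA, lies at chr15:73095844-73184935 on the minus strand and has the longest merged exons of the 8, 14.03 kb. In total RNA it was at 131.7, 126.0 and 122.7 CPM in controls and at 70.41, 123.8 and 127.2 CPM in HTT-deleted cells. Ribosome-associated RNA held 70.80, 80.14 and 85.89 CPM in controls and 81.59, 75.21 and 81.85 CPM in HTT-deleted cells. All ribosome-associated libraries of controls were below all their total libraries, by -0.69 on the log2 scale (SE 0.09, 1.61-fold lower, Benjamini-Hochberg adjusted p = 0.0041, edgeR's quasi-likelihood test). Total HTT-deleted replicate 1 was lower than every ribosome-associated library. The effect of HTT deletion in total RNA was -0.22 (95% interval -0.75 to 0.30), and 0.02 (-0.11 to 0.15) in the blocked fit without the pair of replicates 1. The ribosome-associated effect was 0.02 (-0.21 to 0.24). In the annotation 219 bases of its exons (1.6%) are shared with Chrac1 on the opposite strand.

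Trip10, which links active Cdc42 to membrane curvature and actin, lies at chr17:57249455-57263665 on the plus strand. Its level in total RNA was 75.79, 66.75 and 77.39 CPM in controls and 71.84, 60.97 and 71.52 CPM in HTT-deleted cells. In ribosome-associated RNA it was 52.63, 52.77 and 52.50 CPM in controls and 47.60, 49.01 and 51.96 CPM in HTT-deleted cells. The 3 ribosome-associated control libraries lay within 0.27 CPM of each other, and all 3 HTT-deleted libraries of that fraction were below them. This was the only one of the 8 partners whose groups did not overlap in a comparison of HTT-deleted with control cells, against 5.44% of all genes in that fraction. The difference there was -0.08 (SE 0.08, 95% interval -0.26 to 0.10) and was not called (adjusted p = 1.0, edgeR's quasi-likelihood test). In total RNA it was -0.08 (-0.41 to 0.26), and each of the 3 pairs was below 0 in both fractions. Ribosome-associated minus total RNA in controls was -0.49 (SE 0.08, 1.40-fold lower, Benjamini-Hochberg adjusted p = 0.0077, edgeR's quasi-likelihood test).

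In HTT-deleted cells the fitted difference between the fractions was below 0 for all 8 partners, with wider errors than in controls. With the block, 97 genes (0.663%) and 0 partners were called, Prpf40b at -1.12 (adjusted p = 0.0572, edgeR's quasi-likelihood test). Without it, edgeR's quasi-likelihood test called 0 of the 8 and 131 of 14627 genes (0.896%, all lower). Prpf40b and Trip10 had an unadjusted p under 0.05, as did 12.2% of genes, and DESeq2 and limma voom called 2 and 0 of the 8. The values were -1.13 for Prpf40b, -0.59 for Hip1r, -0.49 for Hap1, -0.47 for Trip10, -0.44 for Ago2, -0.23 for Hip1, -0.17 for F8a and -0.13 for Zdhhc17. Groups did not overlap for 2 of the 8, Prpf40b and Trip10, against 20.5% of genes. Without total HTT-deleted replicate 1 the count over all genes was 3008 of 15141 (19.9%, with 11.9% lower and 7.95% higher), and 5 partners were called lower, the same 5 as in controls: Prpf40b (-1.27), Hip1r (-0.77), Ago2 (-0.66), Hip1 (-0.49) and Trip10 (-0.43). Groups then did not overlap for 7 of the 8, Hap1 being the exception, against 52.0% of genes. F8a turned from -0.17 to 0.27 on leaving this library out. In the blocked fit without the pair of replicates 1, which has only 2 pairs, 55.6% of genes and 6 partners were called, Zdhhc17 (-0.21) included.

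**Figure D3:**
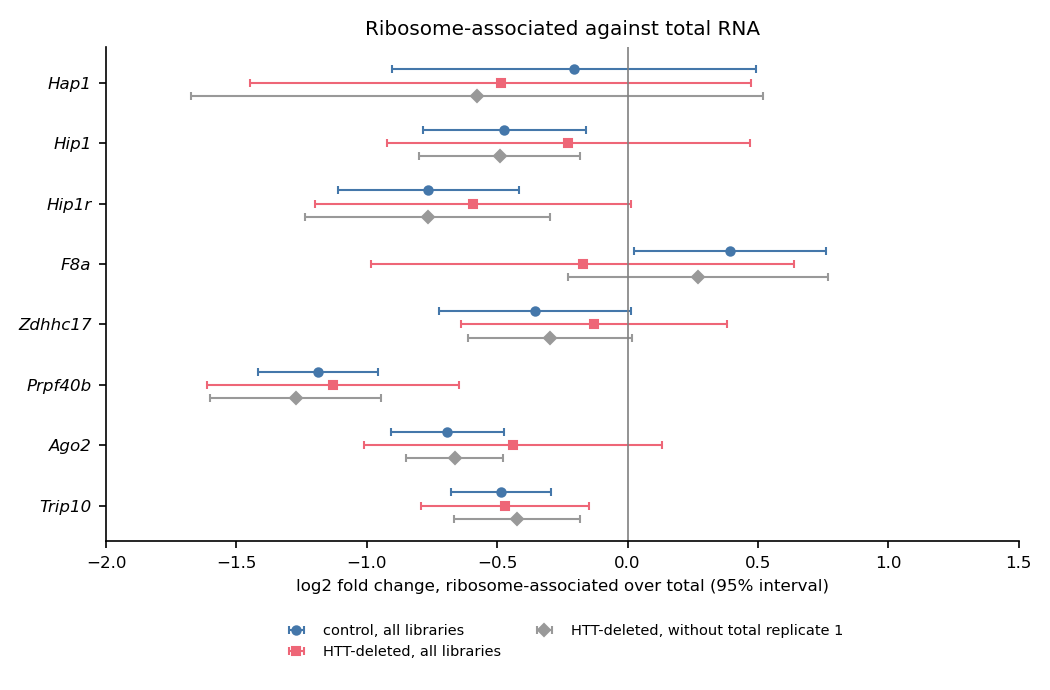
Log2 fold change of ribosome-associated over total RNA (x axis) for each partner (y axis), with 95% intervals, in control cells, in HTT-deleted cells and in HTT-deleted cells without total replicate 1. Prpf40b is the lowest in all 3 series (-1.19, -1.13 and -1.27), and only F8a has a value above 0 in controls (0.39).

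Whether HTT deletion shifted a transcript between the fractions was tested as an interaction over all 12 libraries. The fit did not pair the fractions of 1 culture. edgeR's quasi-likelihood test called 0 of 15574 genes (0.0%), with 85 (0.546%) at an unadjusted p under 0.05, and DESeq2 and limma voom called 0. No partner had an unadjusted p under 0.05. Values were -0.56 for F8a (95% interval -1.40 to 0.28) and -0.28 for Hap1 (-1.34 to 0.78), and between 0.02 and 0.25 for the other 6. With a block that pairs the fractions of 1 culture, edgeR's quasi-likelihood test called 0 of 15574 genes and 0 partners. In that fit 150 genes (0.963%) had an unadjusted p under 0.05. In the blocked fit without the pair of replicates 1, which again called 0 genes, F8a went from -0.56 to -0.08, Ago2 went from 0.25 to -0.10, Hip1 from 0.25 to -0.04, Hip1r from 0.17 to -0.07 and Prpf40b from 0.06 to -0.03.

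The deviation of total HTT-deleted replicate 1 ran with exon length among the partners too. Measured against the mean log2 CPM of the other 5 total libraries, F8a (2.50 kb) was 1.02 higher there, Trip10 (3.18 kb) and Hap1 (3.77 kb) were at 0.03 and 0.003, and the 5 longer genes were all below 0. Prpf40b (4.95 kb), Zdhhc17 (7.05 kb) and Hip1r (7.37 kb) were at -0.52, -0.59 and -0.55, and Hip1 (12.96 kb) and Ago2 (14.03 kb) at -0.97 and -0.84. In the other total libraries no partner longer than 4 kb deviated by more than 0.39. The part of exon length in these values was not tested.

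**Figure D4:**
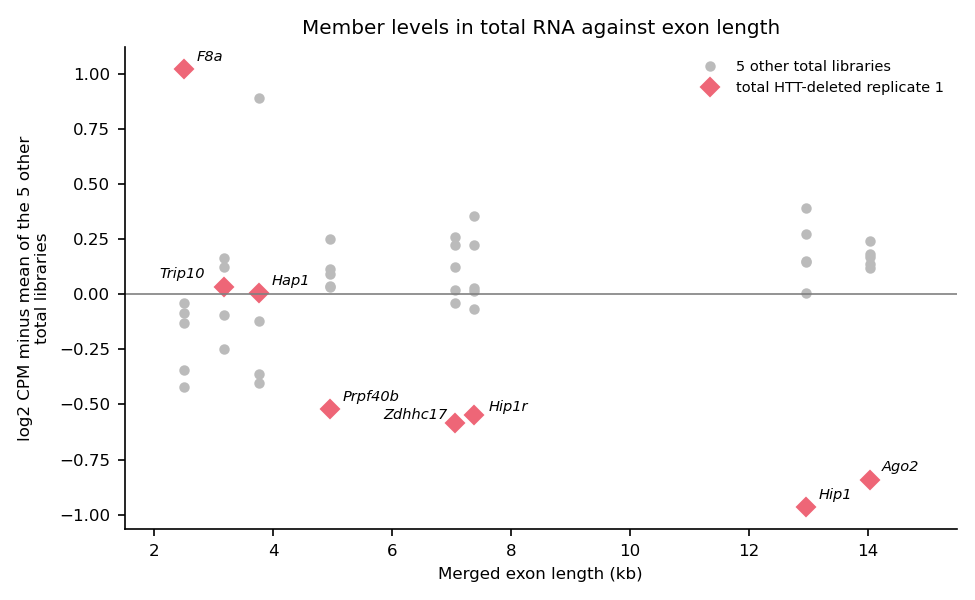
Deviation of each partner in a total library from the mean of the other 5 (y axis, log2 CPM) against its merged exon length (x axis, kb), for total HTT-deleted replicate 1 (labelled diamonds) and for the other 5 libraries (grey points). The diamonds run from 1.02 for F8a to -0.97 for Hip1, and the grey points stay within -0.42 and 0.39 apart from Hap1 in HTT-deleted replicate 2 (0.89).

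The difference between the fractions also ran with length and transcript type over all genes. Across 13254 protein-coding genes in controls, ribosome-associated minus total RNA had a Spearman rho of -0.537 with merged exon length, a correlation across genes, which are not independent replicates. Among the 8, the shortest, F8a, was the highest, but the longest, Ago2, was not the lowest: Prpf40b, at 4.95 kb, was. Retained-intron transcripts are annotated for Prpf40b (6), Zdhhc17 (6), Hip1 (4), Trip10 (4) and Hip1r (3), and for none of Hap1, F8a and Ago2. Genes with such a transcript had a median of -0.05 (7693 genes, 18.8% called lower), and those without one had a median of 0.13 (5561 genes, 7.73% called lower). Reads assigned to no gene made up 6.935 to 7.725% in the total libraries and 2.643 to 3.3% in the ribosome-associated ones. How much unspliced RNA the counts of a partner hold was not tested.

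Close relatives of the partners gave a comparison within families. Of the 8 paralogs described here, 5 were called lower and 1 higher in ribosome-associated RNA of controls. Zdhhc13, the other palmitoyltransferase with ankyrin repeats, was higher in ribosome-associated RNA (0.36, SE 0.10), opposite in sign to Zdhhc17 (95% intervals 0.13 to 0.58 and -0.73 to 0.01). Its call was lost in 8 of 16 alternatives, among them every fit with 1 control library left out (adjusted p up to 0.117, edgeR's quasi-likelihood test), with values from 0.32 to 0.41. All 4 Argonautes were lower, Ago4 at -1.02 (SE 0.19), Ago3 at -0.99 (SE 0.13), Ago2 at -0.69 (SE 0.09) and Ago1 at -0.43 (SE 0.09). The F-BAR relatives of Trip10 were at -0.55 (Fnbp1, SE 0.13, called) and -0.10 (Fnbp1l, SE 0.11, not called), and the motor adaptors Trak1 and Trak2, relatives of Hap1, at -0.37 (SE 0.07, called) and -0.33 (SE 0.14, not called). With the replicate block Trak2 was called too (-0.33, SE 0.08, adjusted p = 0.0045 in edgeR's quasi-likelihood test), and it was below 0 in 3 of 3 pairs. Leaving out total control replicate 1 ended the calls of Ago1, Ago4, Fnbp1 and Trak1 (adjusted p of 0.0637, 0.0544, 0.0692 and 0.0647), and that of Ago3 held in 16 of 16 alternatives. Other single libraries that ended a call were total control replicate 2 for Fnbp1 and Trak1, total control replicate 3 for Ago1 and ribosome-associated control replicate 3 for Fnbp1. The fit of all 12 libraries ended the calls of Ago1 and Trak1 (adjusted p of 0.216 and 0.153, edgeR's quasi-likelihood test). The differences between paralogs were not tested in a model of their own. None of the 8 was called in HTT-deleted against control cells in either fraction by edgeR's quasi-likelihood test, and none had an unadjusted p under 0.05 there.

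**Figure D5:**
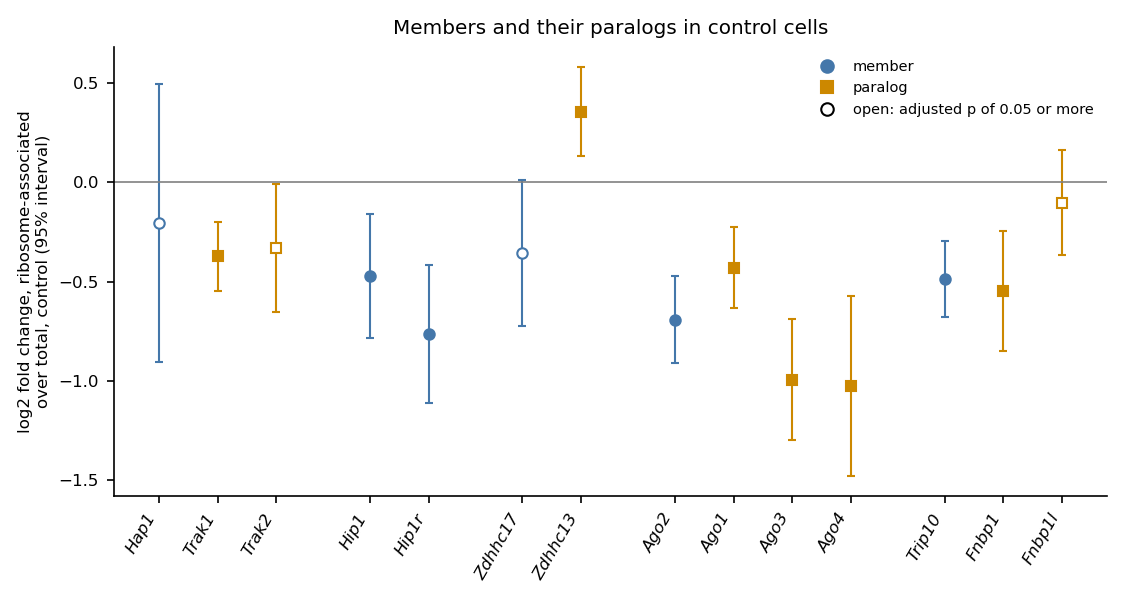
Log2 fold change of ribosome-associated over total RNA in control cells (y axis) for 6 of the partners and for paralogs of theirs (x axis, grouped by family), with 95% intervals and open symbols where the adjusted p was 0.05 or more. Ago4 (-1.02) is the lowest symbol, and Zdhhc13 (0.36) is the only one above 0.

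The wider pathways of the partners were read from lists of their known co-workers, against the 15.0% of all genes called lower and 10.0% called higher in ribosome-associated RNA of controls. The lists share genes with each other and with the paralogs, among them Trak1, Ago3, Fnbp1 and Zdhhc13. Of 12 genes around Hap1 and the microtubule motors, 7 were called lower and 0 higher, with a median of -0.40. The neuronal kinesin heavy chain Kif5a had the largest difference (-1.82, SE 0.22, from 6.849 ± 1.21 to 1.948 ± 0.101 CPM, SD, n = 3), followed among those named by the kinesin light chain Klc2 (-0.50, SE 0.09). Of 10 genes of the small-RNA pathway around Ago2, 7 were lower and 0 higher, with a median of -0.75. They included Dicer1, which cuts microRNA precursors (-0.88, SE 0.12), and the Argonaute-binding scaffold Tnrc6a (-0.80, SE 0.11). Of 8 genes of the U1 particle and its contacts, 6 were lower and 2 higher. The lower ones included Luc7l2 (-0.95, SE 0.08), Snrnp70 (-0.83, SE 0.08), the core U1 protein, and Luc7l (-0.58, SE 0.07), while Snrpc (0.47, SE 0.11) and Snrpa (0.29, SE 0.08), also U1 proteins, were higher.

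In the endocytic and membrane lists calls went in both directions. Of 15 clathrin-coat and endocytic actin genes, 1 was lower and 3 were higher, with a median of -0.05. The clathrin heavy chain Cltc was lower (-0.47, SE 0.09), and the light chain Clta (0.49, SE 0.10) and the AP-2 adaptor subunits Ap2s1 (0.45, SE 0.12) and Ap2m1 (0.33, SE 0.08) were higher. Of 18 tested DHHC palmitoyltransferases out of 23 listed, Zdhhc1 was lower (-0.71, SE 0.09), Zdhhc13 and Zdhhc3 (0.26, SE 0.07) were higher, and the median was 0.17. Among the 3 Rab5 genes around F8a, Rab5c (0.45, SE 0.11) and Rab5a (0.24, SE 0.07) were higher. Of 8 genes around Trip10, Cdc42 was higher (0.43, SE 0.10), Fnbp1 was lower, and the median was -0.10. Of 23 tested further huntingtin partners out of 24 listed, 10 were lower and 2 higher, with a median of -0.23. Lower ones included the autophagy kinase Ulk1 (-0.62, SE 0.09) and the synaptic scaffold Dlg4 (-0.55, SE 0.08), and Ube2k, a ubiquitin-conjugating enzyme, was higher (0.39, SE 0.09). With the replicate block, under which 25.9% of all genes were called lower and 24.3% higher, the counts lower and higher were 11 and 0 of 12 around Hap1, 8 and 0 of 10 around Ago2, 6 and 2 of 8 for the U1 list and 5 and 4 of 15 for the clathrin list. They were 1 and 7 of 18 for the palmitoyltransferases, 0 and 3 of 3 around F8a, 3 and 1 of 8 around Trip10 and 11 and 4 of 23 for the further partners. Differences between the lists were not tested. Over 16 alternatives, Kif5a, Dicer1, Tnrc6a, Luc7l2, Snrnp70, Luc7l, Zdhhc1, Ulk1 and Dlg4 kept their calls in all, and no gene named from the lists changed direction. Calls were lost in 8 alternatives for Rab5a and Snrpa, in 7 for Zdhhc3, in 5 for Cdc42, in 4 for Clta, Ap2m1 and Ap2s1, in 3 for Rab5c and Snrpc, in 2 for Cltc and Ube2k and in 1 for Klc2. Total control replicate 1 was among the libraries whose omission ended each of these calls (adjusted p from 0.0518 for Klc2 to 0.138 for Zdhhc3), and in the fit of all 12 libraries adjusted p reached 0.473 for Ap2s1 and 0.392 for Rab5a, all in edgeR's quasi-likelihood test. Any single control library ended the calls of Rab5a and Snrpa.

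None of the genes in these lists was called in HTT-deleted against control cells in either fraction without a block, by edgeR's quasi-likelihood test. List medians lay between -0.15 and 0.01 in total RNA and between -0.07 and 0.10 in ribosome-associated RNA, beside 0.01 and -0.001 over all genes. With the block, 1 listed gene was called in ribosome-associated RNA: Was, the actin regulator of blood cells in the list around Trip10, at 11.96, 3.118 and 5.717 CPM in controls and 19.40, 6.157 and 8.616 CPM in HTT-deleted cells (0.74, SE 0.14, adjusted p = 0.0090 by edgeR's quasi-likelihood test). It was higher in 3 of 3 pairs. No gene of that list was called in the blocked fit without the pair of replicates 1. All 17 tested macrophage markers were above 0 in the fit that called Was. Their part in this result was not tested.

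Among the 8 partners, log2 CPM over the 12 libraries gave Pearson's r from -0.874 (Hip1 and F8a) to 0.922 (Prpf40b and Trip10), and all 7 pairs with F8a were below 0. Of 13451 genes with a mean of at least 1 CPM, those with the most similar profile were Tubgcp6 (r = 0.996) for Ago2, Gm37795 (0.995) and Ttll3 (0.993) for Prpf40b, Gm16286 (0.986) for F8a, Zbtb37 (0.983) and Zfp512b (0.981) for Hip1r, Cchcr1 (0.977) for Trip10, Numb (0.969) for Hip1, Cnst (0.958) for Zdhhc17 and Sh3d21 (0.869) for Hap1. These correlations are descriptions over 12 libraries that share the step between fractions and the deviation of total HTT-deleted replicate 1. They were not computed without that library, in which F8a was 1.02 above and Hip1 0.97 below the mean log2 CPM of the other total libraries.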

How the data were processed

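RNA of 12 mouse embryonic fibroblast samples was sequenced. FastQC, STAR 2.7.2b, HTSeq 0.11.1 and the GRCm38 (mm10) build are named in the submitters' processing notes, and the authors deposited raw counts per Ensembl gene. Their gene annotation, and whether HTSeq used strand, is not stated in those sources. Libraries were stranded and made from 250 ng of RNA with a quality number above 9, per the labels. A table the authors deposited holds, per fraction, log2 fold changes with their p-value, false discovery rate and likelihood ratio score. Its name speaks of edgeR and RUVSeq.

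Of 55487 genes, 55394 had a symbol, and 5 summary entries were left out of library sizes. No replicates repeated each other (chi-square 35.7 to 179 per degree of freedom), and all libraries were kept. Counts were filtered with filterByExpr, scaled by TMM and tested with edgeR 4.0.16 (quasi-likelihood, robust) under R 4.3.3, with Benjamini-Hochberg adjustment over all genes tested and calls at an adjusted p under 0.05. Each comparison used its own 6 libraries, and the interaction all 12. All 8 partners passed the filter in every comparison. A 95% interval is the log2 fold change ± the t quantile times its SE, and the SE is the log2 fold change over the root of F. Log2 CPM used a prior count of 2. Gene positions, exon lengths and overlaps come from GENCODE M21 on GRCm38 and start sites from RefSeq. The test script was checked on simulated counts, which held no replicate effect and no deviating library, unlike the data.

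Replicate numbers pair the samples: correlations of deviations between same-numbered libraries over 15574 genes were 0.227 to 0.737 in all 12 pairs, and fractions with 1 number come from 1 cell suspension per the labels. Values from the blocked fit are given beside the partners and paralogs whose call they change. The partners, paralogs, lists, tests and alternatives were chosen with earlier results of these data known. Named genes are the 8 partners, Htt, 8 paralogs, up to 3 called genes per list and direction with groups that do not overlap, by smallest p, and the genes with the highest r to a partner. Alternatives were other scalings, filters, DESeq2 1.42.0, limma 3.58.1 voom, the block, 2 factors of unwanted variation, all 12 libraries in 1 fit and each library left out. Some genes that the naming rule covers are not reported here.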

Additional observations from a re-analysis of the deposited data

How the results depend on the processing

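Across the alternatives, the 8 partners kept their direction in 127 of 127 fits of ribosome-associated against total RNA in controls, in 123 of 127 in HTT-deleted cells and in 389 of 421 fits of the HTT effect or its interaction, none of which called a partner. Depth limits Hap1 (21 to 45 reads). The replicate block without pair 1 turned the direction in total RNA for Hip1 (0.12), Hip1r (0.10), F8a (-0.002) and Ago2 (0.021), in ribosome-associated RNA for Ago2 (-0.078), in the interaction for Hip1 (-0.044), Hip1r (-0.07), Prpf40b (-0.025), Ago2 (-0.10) and Htt (-0.17), and in the HTT-deleted fractions for F8a (0.30). Upper-quartile scaling turned the interaction of Trip10 (-0.012). Leaving out 1 library gave, for HTT deletion in total RNA, -0.36 to 0.12 for Hip1, -0.22 to 0.13 for Hip1r, -0.023 to 0.68 for F8a, -0.27 to 0.045 for Zdhhc17 and -0.14 to 0.004 for Trip10. In ribosome-associated RNA it gave -0.068 to 0.23 for Hap1, -0.035 to 0.19 for Hip1, -0.018 to 0.21 for Hip1r, -0.033 to 0.29 for Zdhhc17 and -0.052 to 0.083 for Ago2. The interaction then ran from -0.51 to 0.11 for Hap1, -0.007 to 0.48 for Hip1, -0.076 to 0.16 for Prpf40b, -0.053 to 0.084 for Trip10 and -0.26 to 0.71 for Htt. Ribosome-associated against total RNA ran from -0.19 to 0.016 for Fnbp1l in controls, and in HTT-deleted cells from -0.49 to 0.005 for Hip1, -0.40 to 0.27 for F8a and -0.30 to 0.037 for Zdhhc17. Genes called for HTT deletion in total RNA numbered 1 with no filter, 3 by DESeq2, 3 with 2 factors of unwanted variation and 94 with the replicate block without pair 1. In ribosome-associated RNA they numbered 1 by DESeq2, 247 with the replicate block, 14 without pair 1 as well, and 343 with 2 factors. Between the fractions of controls, 7524 genes were called with the replicate block, 7445 without pair 1 as well, 7578 with 2 factors and 1646 with all 12 libraries, and leaving out 1 library gave 1507 to 3251 genes and 3 to 6 partners. In HTT-deleted cells the genes called were 208 with no filter, 86 at 5 CPM in 3 libraries, 866 by DESeq2, 8333 with the replicate block without pair 1, 2631 with 2 factors and 1135 with all 12 libraries, and 0 to 3008 with 1 library left out. The partners called there were 1 with no filter, 2 by DESeq2, 6 with the replicate block without pair 1, 4 with 2 factors, 2 with all 12 libraries and 0 to 5 with 1 library left out. The causes of these shifts were not tested. The block changed the calls of Zdhhc17 and F8a between the fractions of controls and of no other partner.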
